A study of Mus musculus with 24 samples.

Results

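The 10 genes described here include Epcam, Krt19, Sox9 and Sox4 of the ductular epithelium, and Afp and Gpc3 of the fetal liver. The others, Ly6d, Anxa2, Fam83a and Shc2, stand under liver injury in the name of the set, and a role in injury was not tested. All are listed in this order below, with Afp and Gpc3 last. The set makes up 10 of 54532 genes in the deposited FPKM table, found there by gene symbol. FPKM are fragments per kilobase of gene and M reads, already scaled per library by the authors. The set was chosen by measured values of the same livers, namely the difference between knockout and wild type on Western diet and the effect of that diet in wild type. Levels and fold changes in these comparisons, and in their difference between the diets, are therefore given as a description without a p-value, and the members' calls in them support nothing.

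The study asked how magnesium uptake into mitochondria through Mrs2, the magnesium channel of the inner membrane, bears on metabolism during long feeding with an obesogenic diet. The groups of mice compared in each tissue were Mrs2 knockout on Western diet (KO WD), wild type on Western diet (WT WD), knockout on chow (KO chow) and wild type on chow (WT chow). The diets began at 13 weeks of age and lasted 52 weeks. Each group held 3 samples of liver and 3 of inguinal white adipose tissue (iWAT, a fat depot under the skin), which made 24 libraries. RNA came from 50 mg of whole liver or 100 mg of iWAT without its lymph nodes. How the knockout was made is not given in the sources used here.

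Bile ducts are lined by cholangiocytes, which carry Epcam, Krt19 and Sox9, and in chronic liver injury cells with these markers multiply around the portal tracts as the ductular reaction. Afp and Gpc3 are made by the fetal liver, are nearly silent in the adult organ and are known for their return in hepatocellular carcinoma. Whole liver was sequenced, so that fewer cells of a type and less RNA per cell cannot be told apart.

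Recovered reads numbered 14.7 to 19.5 M per liver and 15.4 to 20.4 M per iWAT library. The tissues matched their labels: albumin (Alb) stood at 15165 to 57310 FPKM in liver and at most 32.7 FPKM in iWAT, and the fat cell gene Adipoq at 826 to 1458 FPKM in iWAT and at most 1.12 FPKM in liver. Mrs2 itself did not separate the labels in liver on WD (4.10, 5.21 and 4.21 FPKM in livers labelled KO, against 5.10, 4.10 and 5.11 FPKM in livers labelled WT), whereas the chow groups held 3.90, 4.47 and 4.16 FPKM (KO) against 6.26, 5.87 and 6.50 FPKM (WT). Directions on WD are therefore those of the livers labelled KO and WT. Pancreatic acinar genes summed to 2360 FPKM in KO chow replicate 1 and 1730 FPKM in WT WD replicate 2, and to at most 24.5 FPKM in the other 10 livers (14 genes). Skeletal muscle genes (8) reached 64.9 FPKM in replicate 2 of KO WD and 139 FPKM in replicate 3 of WT chow.

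In liver, 9 of the 10 genes reached the mean of 0.5 FPKM over the 12 livers that was required for testing, and Gpc3 (mean 0.40 FPKM) did not. Sox4, Shc2, Fam83a, Krt19 and Epcam, with group means under 0.7 FPKM outside the WT WD livers, came through largely by their level there. The filter therefore had to favour a difference, and their counts below are a description.

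Promoter sequence was at hand for 6 of the 10 genes. The promoters of Epcam, which moved with Anxa2, Sox4 and Shc2, and of Gpc3 held no match to the motifs below and are not shown. Those of Anxa2, Sox4 and Shc2, which moved together, and of Afp, which did not, held a match and are shown. Each is the 250 bases before the start in RefSeq on GRCm38.p6, 5′ to 3′ on the gene's strand, and the last base is position -1.
Anxa2, chr9:69453433-69453682, plus strand: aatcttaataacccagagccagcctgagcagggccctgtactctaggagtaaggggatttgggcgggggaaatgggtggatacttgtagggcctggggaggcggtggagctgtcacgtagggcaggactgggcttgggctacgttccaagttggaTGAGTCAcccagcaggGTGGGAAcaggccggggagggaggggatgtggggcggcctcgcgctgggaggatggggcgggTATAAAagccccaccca
Sox4, chr13:28953700-28953949, minus strand: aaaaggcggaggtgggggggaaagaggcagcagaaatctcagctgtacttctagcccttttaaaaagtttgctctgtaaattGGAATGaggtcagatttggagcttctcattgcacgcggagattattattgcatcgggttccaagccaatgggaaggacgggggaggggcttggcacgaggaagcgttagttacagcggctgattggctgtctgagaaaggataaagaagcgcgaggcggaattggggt
Shc2, chr10:79637919-79638168, minus strand: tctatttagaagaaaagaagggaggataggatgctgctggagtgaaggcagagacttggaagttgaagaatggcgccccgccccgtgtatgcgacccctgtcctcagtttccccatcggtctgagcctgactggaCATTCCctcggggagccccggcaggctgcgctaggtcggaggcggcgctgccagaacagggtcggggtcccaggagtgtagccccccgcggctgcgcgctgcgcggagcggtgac
Afp, chr5:90490464-90490713, plus strand: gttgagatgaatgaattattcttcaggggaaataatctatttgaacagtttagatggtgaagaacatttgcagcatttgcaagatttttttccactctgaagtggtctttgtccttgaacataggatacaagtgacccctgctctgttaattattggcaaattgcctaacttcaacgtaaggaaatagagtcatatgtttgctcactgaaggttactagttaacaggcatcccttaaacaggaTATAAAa
Capitals mark matches to 6 short motifs searched on both strands: TEAD (GGAATG), AP-1 (TGANTCA), SOX (ACAATG), HNF4 (AAAGTCC), RBPJ (GTGGGAA) and a TATA box (TATAAA). No matches overlap in these windows. Anxa2 held an AP-1 motif (-95 to -89), an RBPJ motif (-79 to -73) and a TATA box (-17 to -12), although its RefSeq start lies 63 bases inside the gene as deposited. The TEAD motif was found in Sox4 (-168 to -163) and, on the other strand, in Shc2 (-115 to -110), and Afp held a TATA box (-7 to -2). The RefSeq start of Afp lies 23 bases before the gene as deposited, and that of Sox4 lies 14 bases inside it, so that positions depend on the start used. Epcam and Gpc3 held none of the 6. Of 32851 mouse promoter windows of this length, 12.6% held the TEAD, 6.75% the AP-1, 10.7% the SOX, 3.58% the HNF4, 5.42% the RBPJ and 12.4% the TATA letters, and each match is a description.

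The livers labelled KO on WD lay below those labelled WT on WD in all 10 genes, without overlap between the 3 livers of each group. By limma on log2(FPKM + 1), 8 of the 9 tested genes passed an adjusted p of 0.05 and were lower, against 10.4% of all 14019 tested genes called lower; 17.5% of all tested genes were lower without overlap. Since this comparison chose the genes, nothing is read from those shares. The median log2 fold change over the 9 genes was -1.32, beside 0.07 over all tested genes. Scaled to the recovered reads instead of as deposited, the median of all genes shifts by -0.24 in this comparison, and the called genes split into 337 higher and 3029 lower, against 1490 and 1453 on the deposited scale. All 9 genes were below 0 under every scaling.

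**Figure D1:**
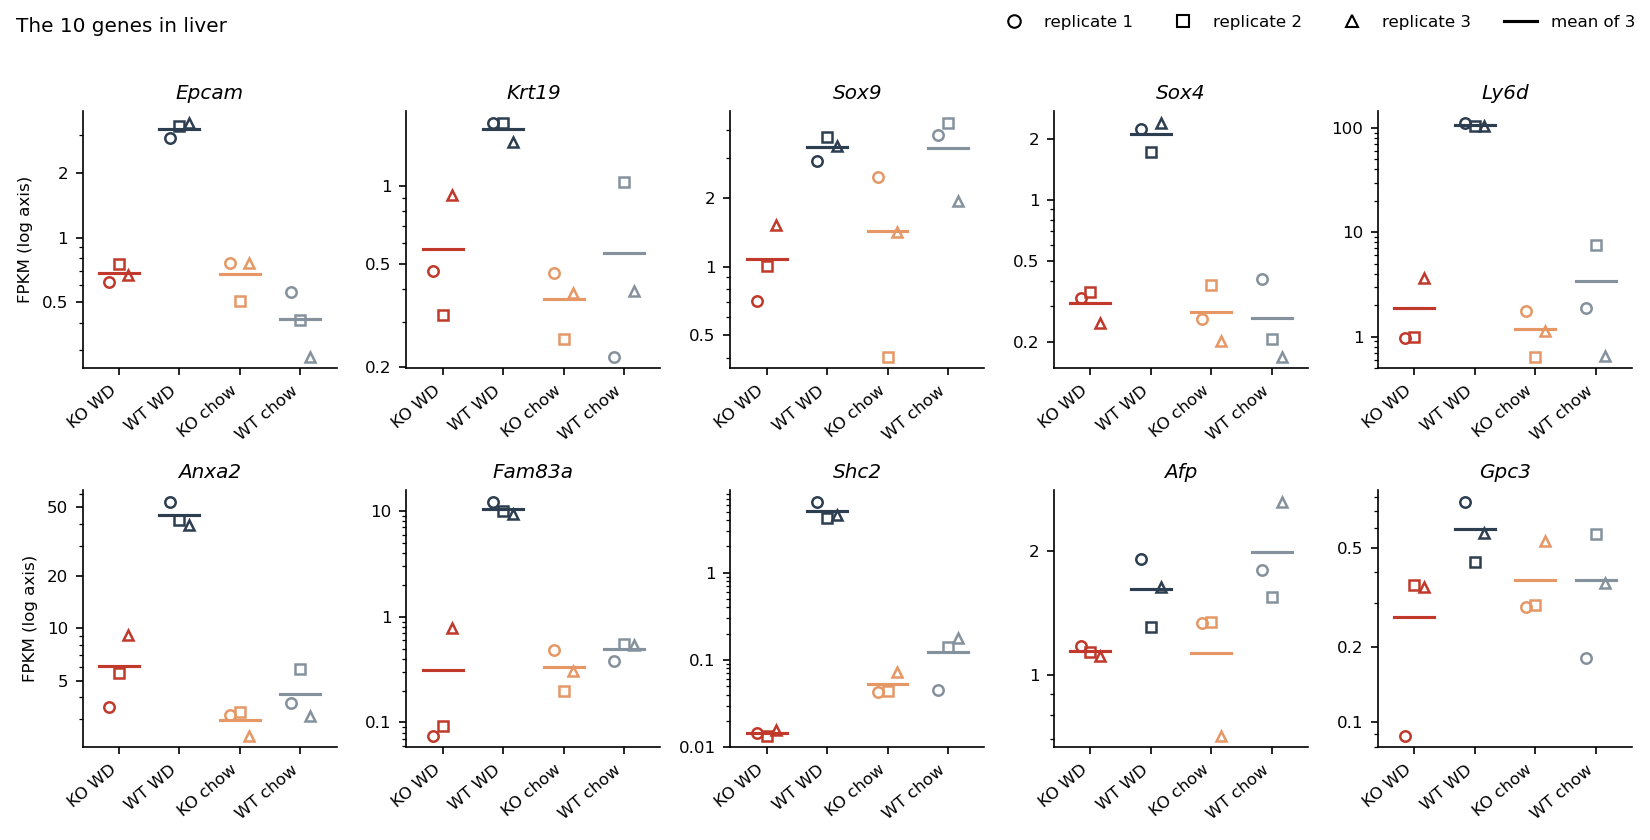
FPKM of each gene (log axis, a scale of its own per panel) in the 12 livers, by group from KO WD to WT chow. Each symbol is 1 liver, its shape the replicate number, and the line is the mean of 3. For 6 genes (Epcam, Sox4, Ly6d, Anxa2, Fam83a and Shc2) the WT WD livers stand far above the other 9, while Sox9 is as high in WT chow and Afp highest there.

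Epcam (ENSMUSG00000045394, mm10 chromosome 17, 87635979 to 87651106, plus strand), a cell adhesion molecule of cholangiocytes, stood at 0.622, 0.756 and 0.668 FPKM in KO WD, 2.90, 3.31 and 3.42 FPKM in WT WD, 0.762, 0.506 and 0.764 FPKM in KO chow and 0.559, 0.413 and 0.278 FPKM in WT chow livers. WT WD thus stood far above the other groups. KO chow overlapped both KO WD and WT chow, while every KO WD liver lay above every WT chow liver. The log2 fold change was -1.32 ± 0.11 (SE, n = 3 per group, as for all that follow) for KO against WT on WD and 1.57 ± 0.11 for WD against chow in WT.

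Krt19 (ENSMUSG00000020911, chromosome 11, 100140810 to 100148665, minus strand), a keratin of bile duct cells, was scarcer and less even. It stood at 0.470, 0.317 and 0.918 FPKM in KO WD, 1.74, 1.74 and 1.47 FPKM in WT WD, 0.461, 0.257 and 0.385 FPKM in KO chow and 0.220, 1.03 and 0.393 FPKM in WT chow livers. The WT WD livers were the highest, and WT chow replicate 2 came next, above every KO liver. Counts were small, with 44 to 52 reads in each WT WD liver and 5 to 25 in each of the rest. On WD the difference of KO from WT was -0.77 ± 0.20, and that of WD from chow in WT 0.81 ± 0.20. By edgeR on the recovered reads Krt19 was the one called gene of the set to miss the threshold in each of these comparisons.

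Sox9 (ENSMUSG00000000567, chromosome 11, 112782224 to 112787760, plus strand), a transcription factor of duct cells and of hepatocytes next to the ducts, followed another pattern. It stood at 0.710, 1.01 and 1.52 FPKM in KO WD, 2.92, 3.72 and 3.39 FPKM in WT WD, 2.48, 0.403 and 1.43 FPKM in KO chow and 3.78, 4.28 and 1.94 FPKM in WT chow livers. Both WT groups averaged 3.34 FPKM, and the KO groups 1.08 ± 0.411 FPKM on WD and 1.44 ± 1.04 FPKM on chow (SD, n = 3). On WD the labels did not overlap, while on chow KO replicate 1 lay above WT replicate 3. WD against chow in WT gave 0.04 ± 0.32, the diet effect nearest to 0 among the 9 genes, and KO against WT on WD gave -1.08 ± 0.32. Its call on WD was lost without any 1 of the 6 livers compared.

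Sox4 (ENSMUSG00000076431, chromosome 13, 28948919 to 28953713, minus strand), a transcription factor of the developing bile duct, stood at 0.331, 0.352 and 0.249 FPKM in KO WD, 2.23, 1.72 and 2.40 FPKM in WT WD, 0.259, 0.381 and 0.203 FPKM in KO chow and 0.408, 0.208 and 0.169 FPKM in WT chow livers. Its 3 low groups could not be ordered. The differences were -1.24 ± 0.13 for KO against WT on WD and 1.30 ± 0.13 for WD against chow in WT. Of its exonic bases 54.6% are shared with a gene model on the other strand, Gm26735, which was listed at 0 FPKM in every liver group, and the strandedness of the libraries is not given in the sources used here.

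Ly6d (ENSMUSG00000034634, chromosome 15, 74762056 to 74763620, minus strand), a membrane-anchored protein of the Ly6 family known from keratinocytes and from B cell precursors, showed the widest range. It stood at 0.960, 0.987 and 3.66 FPKM in KO WD, 112, 105 and 103 FPKM in WT WD, 1.78, 0.640 and 1.13 FPKM in KO chow and 1.86, 7.63 and 0.654 FPKM in WT chow livers. The WT WD mean of 107 ± 4.50 FPKM (SD, n = 3) ranked 413 of 14019 tested genes, and the KO WD mean of 1.87 ± 1.55 FPKM ranked 9838. Among all tested genes it had the largest fall in KO against WT on WD (-5.36 ± 0.53) and the largest rise in WD against chow in WT (4.97 ± 0.53). WT chow replicate 2 and KO WD replicate 3 were the highest outside WT WD.

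Anxa2 (ENSMUSG00000032231, chromosome 9, 69453620 to 69491795, plus strand), an annexin that binds membrane lipids in the presence of calcium, stood at 3.53, 5.49 and 9.22 FPKM in KO WD, 53.8, 42.2 and 39.5 FPKM in WT WD, 3.17, 3.28 and 2.40 FPKM in KO chow and 3.71, 5.80 and 3.11 FPKM in WT chow livers. It is the one gene of the set for which KO WD also lay above KO chow without overlap. The differences were -2.77 ± 0.28 for KO against WT on WD and 3.17 ± 0.28 for WD against chow in WT. It shares 2.63% of its exonic bases with the gene model Gm16144 on the other strand, which averaged at most 0.401 FPKM in a group.

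Fam83a (ENSMUSG00000051225, chromosome 15, 57985419 to 58011009, plus strand), an adaptor of growth factor signalling known from human tumour cells, stood at 0.0751, 0.0927 and 0.778 FPKM in KO WD, 12.2, 10.04 and 9.38 FPKM in WT WD, 0.490, 0.200 and 0.307 FPKM in KO chow and 0.385, 0.556 and 0.537 FPKM in WT chow livers. KO WD replicate 3 held 29 reads and replicates 1 and 2 held 3 and 4, while the WT WD livers held 481 to 624. The log2 fold change on FPKM + 1 was -3.17 ± 0.19 for KO against WT on WD, where edgeR on reads gave -5.17, since the added 1 shrinks the change of a gene this low. For WD against chow in WT it was 2.95 ± 0.19.

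Shc2 (ENSMUSG00000020312, chromosome 10, 79618051 to 79637918, minus strand), an adaptor of receptor tyrosine kinases best known from neurons, stood at 0.0146, 0.0135 and 0.0157 FPKM in KO WD, 6.50, 4.27 and 4.65 FPKM in WT WD, 0.0430, 0.0439 and 0.0718 FPKM in KO chow and 0.0451, 0.141 and 0.179 FPKM in WT chow livers. Each KO WD liver held 1 read and the WT WD livers held 567, 374 and 408. Relative to library size, the ratio of KO WD to WT WD was 0.00283, with an exact (Clopper-Pearson) 95% interval of 0.000584 to 0.00830 that covers counting error only. On log2(FPKM + 1) the differences were -2.58 ± 0.14 for KO against WT on WD and 2.44 ± 0.14 for WD against chow in WT. The gene model Gm47163, which shares 63 exonic bases (1.16%) with Shc2 on the other strand, was listed at 0 FPKM in KO WD and KO chow and averaged 3.66 FPKM in WT WD and 0.0325 FPKM in WT chow livers.

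Afp (ENSMUSG00000054932, chromosome 5, 90490737 to 90508907, plus strand), the albumin-like serum protein of the fetus, stood at 1.18, 1.13 and 1.11 FPKM in KO WD, 1.90, 1.31 and 1.63 FPKM in WT WD, 1.34, 1.34 and 0.713 FPKM in KO chow and 1.79, 1.55 and 2.62 FPKM in WT chow livers. It was lower in livers labelled KO than in WT on both diets, without overlap. The differences were -0.28 ± 0.16 for KO against WT on WD, the smallest of the 9 genes, and -0.18 ± 0.16 for WD against chow in WT. Its neighbours in the same gene cluster are Alb and Afm. Alb, 14.1 kb below Afp, averaged 18677 FPKM in KO WD, 17986 in WT WD, 39509 in KO chow and 43746 FPKM in WT chow, and Afm, 10.025 kb above it, averaged 83.7, 50.4, 90.7 and 114 FPKM in the same order. Both were called lower in WD against chow in WT (-1.26 ± 0.25 and -1.11 ± 0.21 by limma, adjusted p = 0.00751 and 0.00708), and Afm was called higher in livers labelled KO than in WT on WD (0.72 ± 0.21, limma adjusted p = 0.0381).

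Gpc3 (ENSMUSG00000055653, chromosome X, 52272426 to 52613950, minus strand), a glypican on the cell surface, stood at 0.0885, 0.355 and 0.348 FPKM in KO WD, 0.764, 0.438 and 0.575 FPKM in WT WD, 0.289, 0.295 and 0.531 FPKM in KO chow and 0.182, 0.570 and 0.362 FPKM in WT chow livers. These are 3 to 33 reads per liver, and the difference of KO from WT on WD was -0.34 ± 0.14 in a fit without the filter. Its neighbour Gpc4, 107 kb below it, was higher in livers labelled KO on WD (30.3 against 18.96 FPKM, log2 fold change 0.65 ± 0.11, limma adjusted p = 0.00483). The fetal name of the set thus rests on genes that were low in every group: Afp stayed at or under 2.62 FPKM and Gpc3 at or under 0.764 FPKM in all 12 livers.

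**Figure D2:**
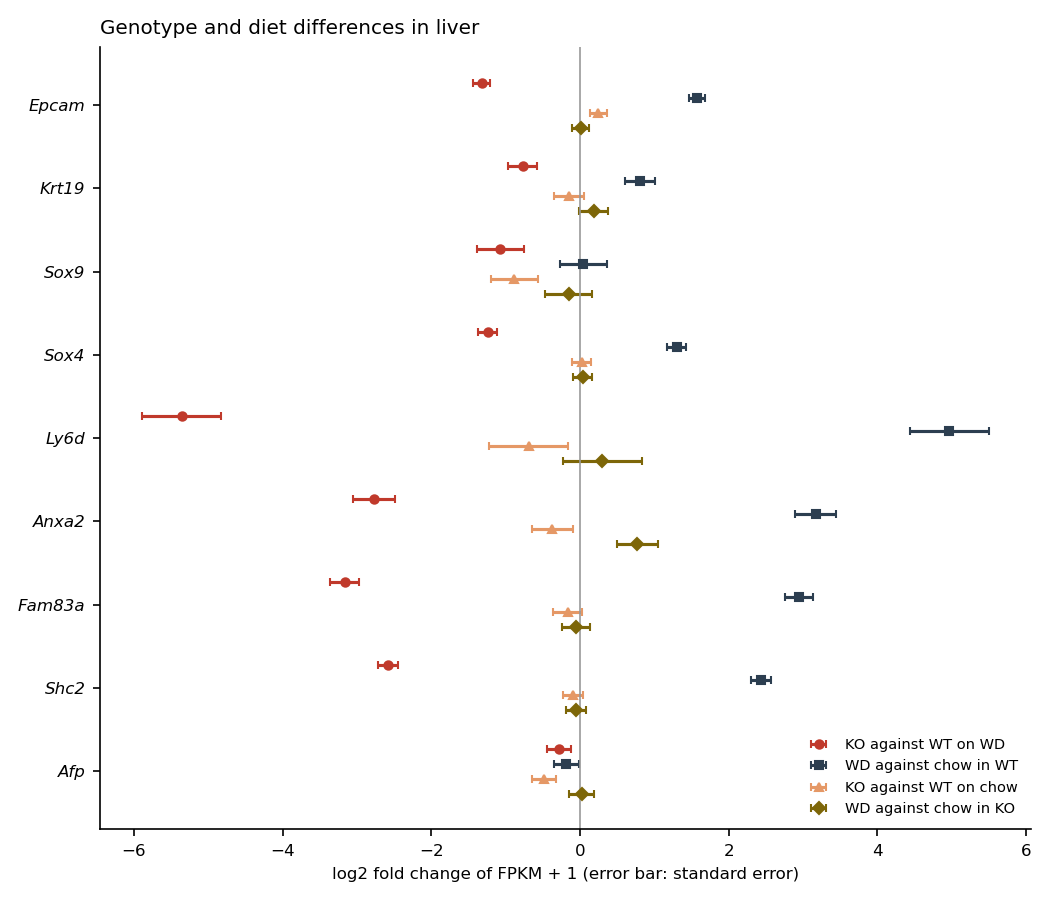
Log2 fold change of FPKM + 1 with its standard error for the 9 genes tested in liver, in 4 comparisons marked by colour and shape. The genotype difference on WD and the diet effect in WT mirror each other for 7 genes, while the genotype difference on chow lies between -0.88 (Sox9) and 0.24 (Epcam) and the diet effect in KO between -0.15 (Sox9) and 0.77 (Anxa2).

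WD against chow in WT livers was the other comparison that chose the genes, and it shares the WT WD livers with the first. Here 7 of 9 tested genes were called higher (9.72% of all tested genes were called higher, and 15.2% were higher without overlap), the exceptions being Sox9 and Afp. Scaled to the recovered reads, the median of all genes shifts by 0.25, with 3623 genes called higher and 345 lower, against 1363 and 1330 on the deposited scale. The same 7 were higher without overlap. The median over the 9 genes was 1.57, against -0.05 over all tested genes. In the difference between the KO effect on WD and on chow, 6 of 9 were called below 0, against 0.421% of all tested genes; scaled to the recovered reads, the median of all genes shifts by -0.21, with 10 genes above and 214 below 0, against 18 and 59. By edgeR 2 of the 9 were called, Shc2 and Epcam, beside 14 of all tested genes. These counts also reuse the WT WD livers.

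KO against WT on chow compared none of the WD livers and was tested. Its WT livers also enter the diet effect in WT, and the spread was estimated over all 12 livers. Sox4, Shc2, Fam83a, Krt19 and Epcam passed the filter largely through WT WD and had group means of at most 0.677 FPKM on chow. For these genes the lack of a call on chow says little. None of the 9 tested genes was called by limma, nor was any of the 14019 (0%), with 675 of these at an unadjusted p under 0.05. By edgeR 0 genes were called and by DESeq2 16, none of them in the set. Sox9 and Afp had an unadjusted p under 0.05: Sox9 at -0.88 ± 0.32 and Afp at -0.49 ± 0.16, both with an adjusted p of 0.863. Afp was the 1 gene of the set whose groups did not overlap, as was the case for 8.92% of all tested genes. Ly6d stood at -0.69 ± 0.53 (adjusted p = 0.863) and Epcam at 0.24 ± 0.11 (adjusted p = 0.863). The authors' deposited table of this comparison holds log2 fold changes of -1.21 for Sox9 and -0.81 for Afp, with adjusted p-values of 0.895 and 0.9998. The remaining 5 genes lay between -0.37 (Anxa2) and 0.02 (Sox4).

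WD against chow in KO livers was tested too, but it shares the KO WD livers with the comparison that chose the genes, where these had to be low. None of the 9 genes was called by limma, against 0.421% of all tested genes, which were 21 higher and 38 lower (27 and 32 when scaled to the recovered reads). Anxa2 was nearest, at 0.77 ± 0.28 (limma adjusted p = 0.232), higher in all 3 KO WD livers than in any KO chow liver, and DESeq2 on reads called it (1.04, adjusted p = 0.0414). The groups did not overlap for Anxa2 and for Shc2 (-0.05 ± 0.14, at 1 read per KO WD liver against 3 to 6 per KO chow liver), and the same held for 26.8% of all tested genes. Ly6d was 0.30 ± 0.53, Krt19 0.18 ± 0.20 and Sox9 -0.15 ± 0.32, and the other 4 lay between -0.05 (Fam83a) and 0.03 (Sox4). Tests of 3 against 3 livers with these standard errors do not show that diet left the genes alike in KO.

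Within groups the genes did not move as one. KO WD replicate 3 was the highest KO WD liver for 6 of the 10 genes (Krt19, Sox9, Ly6d, Anxa2, Fam83a and Shc2, the last at 1 read in each of the 3 livers), WT chow replicate 2 the highest WT chow liver for 6 (Krt19, Sox9, Ly6d, Anxa2, Fam83a and Gpc3), and WT WD replicate 1 the highest WT WD liver for 7. WT chow replicate 2 also had the highest summed macrophage genes of its group (294 FPKM, against 146 and 143), whereas KO WD replicate 3 had the lowest of its own (157, against 181 and 188). The part of these cells in the genes' levels was not tested.

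Genes whose levels followed each member most closely were ranked by Pearson's r of log2(FPKM + 1) over the 12 livers. These points share libraries and groups, so that r mainly restates the height of the WT WD livers, and no p is given. For Ly6d they were Spp1 (osteopontin, r = 0.987), Timp1 (an inhibitor of matrix proteases, 0.987) and Tmem43 (0.980), and for Anxa2 Mmp2 (a matrix protease, 0.989), Anxa5 (0.984) and Pdgfrb (a receptor of stellate cells, 0.982). Shc2 and Fam83a had each other among their 3 (0.989), beside Mir6358, which was listed at 0 FPKM in every group but WT WD, for both, Sprr1a for Fam83a and Casp12 for Shc2. Sox4 had Shc2, Gpnmb and Synpo (0.976, 0.976 and 0.974), Epcam had Mapt, Pawr and Sptan1 (0.973, 0.972 and 0.965), and Krt19 had Cdkn1a (the cell cycle inhibitor p21, 0.964), Spp1 and Ly6d. For Sox9 they were Cib3, Aldh1b1 and Anxa13 (0.914, 0.894 and 0.873), of which Anxa13 averaged 0.469 FPKM in KO WD, 1.72 in WT WD, 0.430 in KO chow and 1.91 FPKM in WT chow. Afp had Agbl5, Cd276 and Arpc4 (0.912, 0.854 and 0.831).

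Other genes of the same roles were described by lists chosen with earlier results of these data known. In livers labelled KO against WT on WD, 10.4% of all tested genes were called lower, 10.6% higher and 21% in either direction. These shares are the background of the list counts on WD that follow, each for its own direction, and nothing is called particular to a list. Of 20 further cholangiocyte and ductular reaction genes, 12 were tested. In this comparison 8 of them were called lower and none higher, with a median of -0.95 against 0.07 over all tested genes. Those with the smallest p were Tspan8 (a membrane tetraspanin, 0.616 ± 0.273 FPKM in KO WD and 4.97 ± 0.856 FPKM in WT WD, SD, n = 3), Bicc1 (0.470 ± 0.0987 and 3.27 ± 0.700 FPKM), Cd24a (0.653 ± 0.0756 and 4.86 ± 1.35 FPKM) and Spp1 (20.3 ± 7.19 and 174 ± 59.1 FPKM). Summed over the 20 genes the list held 387 to 429 FPKM in KO WD, 790 to 1027 FPKM in WT WD, 271 to 445 FPKM in KO chow and 311 to 480 FPKM in WT chow livers, a sum made up mostly by Krt8 and Krt18, which hepatocytes express as well. In KO against WT on chow, and in WD against chow in KO, none of the 12 was called. As 0% and 0.421% of all tested genes were called there, nothing is read from this.

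Of 15 hepatocyte stress and injury genes, 12 were tested and 9 were called lower in livers labelled KO on WD, with a median of -1.42. Gpnmb, a membrane glycoprotein that is also on the macrophage list, led with 0.571 ± 0.433 FPKM in KO WD and 30.1 ± 12.4 FPKM in WT WD, and Tnfrsf12a (the receptor of TWEAK, 4.17 ± 0.616 and 13.1 ± 2.57 FPKM), Plaur (the urokinase receptor, 0.229 ± 0.108 and 2.31 ± 0.721 FPKM) and Cd44 (a receptor of hyaluronan, 2.35 ± 0.0775 and 8.36 ± 2.90 FPKM) followed. Of 20 genes of fetal liver and liver tumours, 10 were tested, of which 6 were called lower and 1 higher on WD (median -1.59). Cbr3, a carbonyl reductase, averaged 0.539 ± 0.151 FPKM in KO WD and 7.67 ± 3.92 FPKM in WT WD, and Scd2, a fatty acid desaturase, 3.20 ± 0.199 and 11.02 ± 2.66 FPKM. Lin28b, a defining gene of the fetal programme, was listed at 0 FPKM in all 12 livers, and Igf2 did not pass 0.0272 FPKM in any.

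Among partners and families, 7 of 12 tested annexins and S100 proteins other than Anxa2 were called lower on WD (median -0.83), with Anxa5 at 53.6 ± 16.4 FPKM in KO WD and 222 ± 19.6 FPKM in WT WD, and S100a11 at 7.73 ± 2.48 and 73.1 ± 10.96 FPKM. None of 7 other Sox genes and none of 3 other Fam83 and Shc genes was called in either direction on WD, at medians of 0.12 and 0.19 (-0.12 and -0.11 when scaled to the recovered reads; by quantile normalization 1 Sox gene was called higher). Shc1, the widely expressed relative of Shc2, averaged 16.8 ± 1.83 FPKM in KO WD and 14.6 ± 1.36 FPKM in WT WD. Of 4 other Ly6 genes tested, Ly6e (75.3 ± 10.6 and 181 ± 46.5 FPKM) and Ly6c2 (0.158 ± 0.118 and 1.17 ± 0.283 FPKM) were called lower. Among 6 tested glypicans and syndecans 3 were called higher (Sdc4, Gpc4 and Sdc2) and 1 lower (Sdc3), and 1 and 1 when scaled to the recovered reads.

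Of 11 tested genes named as targets of YAP and TEAD, which act in the ductular response, 5 were called lower and 1 higher (median -0.51), led by Ajuba (2.12 ± 0.441 FPKM in KO WD and 7.28 ± 1.63 FPKM in WT WD) and Axl (9.34 ± 2.44 and 25.9 ± 6.64 FPKM). Notch signalling, which sets bile duct fate, had 2 of 11 tested genes called lower (median -0.30, beside 10.4% of all tested genes called lower), the target Hey1 (0.298 ± 0.190 and 1.36 ± 0.825 FPKM) and the ligand Jag1 (1.52 ± 0.524 and 2.54 ± 0.241 FPKM); 7 were called lower when scaled to the recovered reads and 0 by quantile normalization. In KO against WT on chow, and in WD against chow in KO, no gene of any of these lists was called. The shares of all tested genes called there were 0% and 0.421%, so that this is no trait of the lists.

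**Figure D3:**
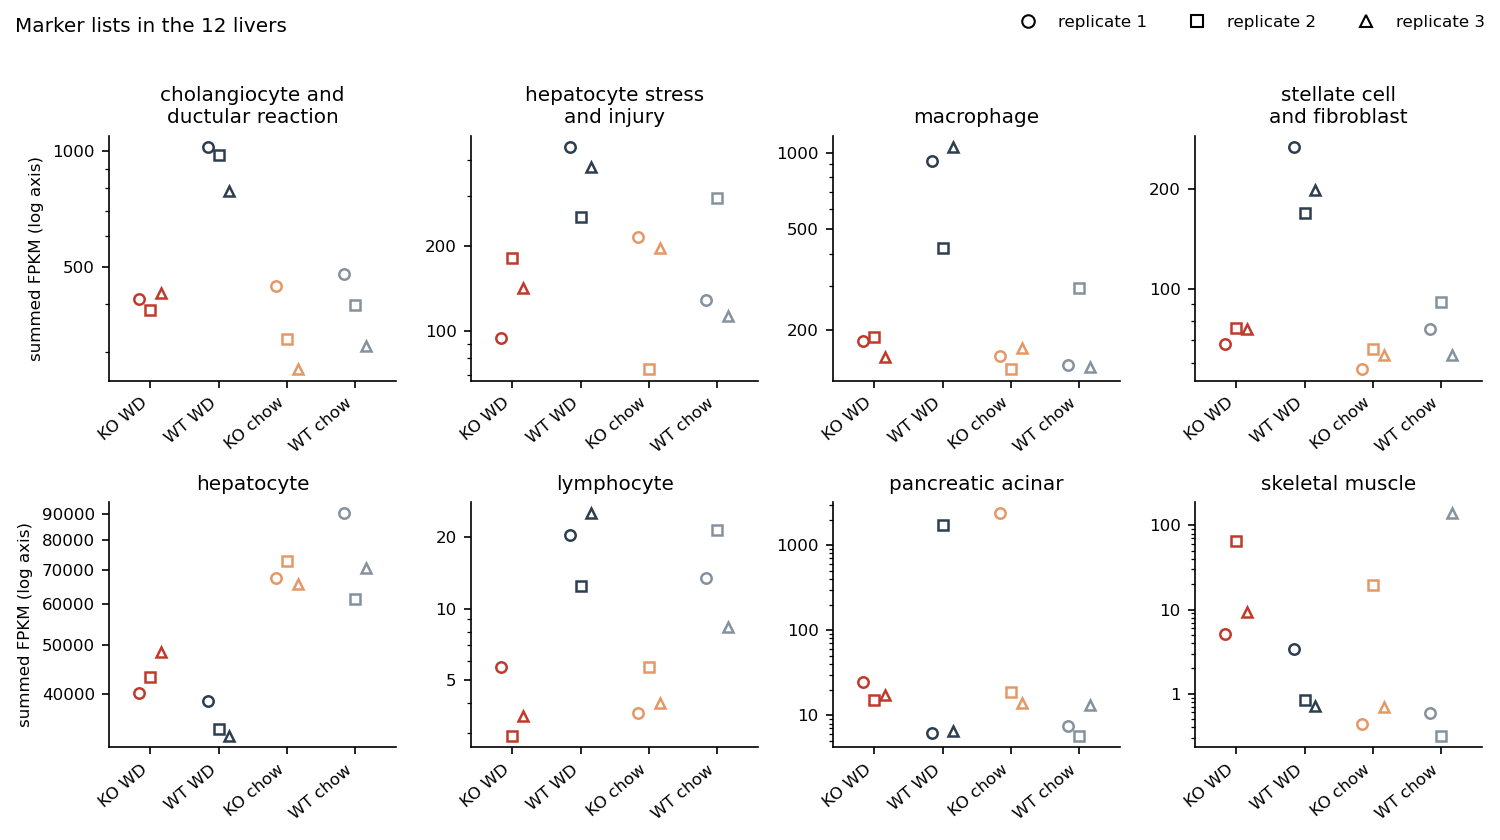
Summed FPKM (log axis) of 8 gene lists in the 12 livers, by group from KO WD to WT chow. Each symbol is 1 liver, its shape the replicate number. The macrophage and stellate cell sums are highest in the 3 WT WD livers, as are those of the ductular list, while acinar and muscle genes stand out in single livers.

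Markers of several other cell types also differed between livers labelled KO and WT on WD, not all in the direction of the 10 genes. Over 14 macrophage genes the sum was 157 to 188 FPKM in KO WD, 420 to 1058 FPKM in WT WD, 140 to 170 FPKM in KO chow and 143 to 294 FPKM in WT chow livers, and none was at 0 in a whole group. For 14 stellate cell and fibroblast genes it was 68.5 to 76.2, 170 to 268, 57.2 to 66.0 and 63.1 to 91.0 FPKM, in the same order of groups, again with none at 0 in a whole group. Called lower in livers labelled KO on WD were 9 of 13 tested genes of each list (medians -1.67 and -1.10), 6 of 8 tested cell cycle genes, 6 of 8 lymphocyte genes and 2 of 8 endothelial genes, with none called higher. Mesothelial genes summed to at most 3.63 FPKM in any liver. The hepatocyte sum was 40149 to 48354 FPKM in KO WD, 33073 to 38764 FPKM in WT WD, 65692 to 72895 FPKM in KO chow and 61316 to 90332 FPKM in WT chow, with 8 of 15 genes called higher on WD (median 0.69). Scaled to the recovered reads, 4 were called higher and 2 lower (median 0.37), and by quantile normalization 1 and 2. The part of these shifts in the levels of the 10 genes was not tested.

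For cell types known to carry Ly6d, keratinocyte genes summed to 12.9 to 13.9 FPKM in KO WD, 13.9 to 19.1 FPKM in WT WD, 12.8 to 19.5 FPKM in KO chow and 9.93 to 15.1 FPKM in WT chow livers over 10 genes, with Krt5, Krt1 and Krtdap at 0 in all 4 groups. B cell progenitor genes summed to 0.583 to 1.91 FPKM over 7 genes in the 12 livers, with Rag2, Vpreb2 and Igll1 at 0 in all 4 groups. The lymphocyte sum over 12 genes was 2.91 to 5.66 FPKM in KO WD, 12.4 to 25.1 FPKM in WT WD, 3.63 to 5.69 FPKM in KO chow and 8.40 to 21.4 FPKM in WT chow, and the part of lymphocytes in the level of Ly6d was not tested. Without KO chow replicate 1 and WT WD replicate 2, the livers with acinar genes, KO against WT on WD gave -5.37 ± 0.65 for Ly6d and -1.30 ± 0.14 for Epcam. In that fit 6 genes of the set were called, against 8, and Krt19 (-0.75 ± 0.24) and Sox9 (-1.01 ± 0.31) lost their calls. The livers left out were the highest of their groups for Sox9 (2.48 FPKM in KO chow, 3.72 FPKM in WT WD). The part of pancreatic tissue in its level was not tested.

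In iWAT, 8 of the 10 genes were tested, and Sox9 and Afp fell under the filter (means of 0.353 and 0.0820 FPKM). The tissue took no part in choosing the genes. None was called by limma in any of the 5 comparisons, beside 4.25% of all 14685 tested genes in KO against WT on WD (470 higher and 154 lower, or 382 and 577 when scaled to the recovered reads), 2.12% in WD against chow in WT and 0% in KO against WT on chow, in WD against chow in KO and in the difference between the diets. At an unadjusted p under 0.05 stood 0, 3, 1, 1 and 0 of the 8 genes in these comparisons in that order. By edgeR none was called, against 699 of all 14685 genes in KO against WT on WD and 380 in WD against chow in WT. By DESeq2 2 of the 8 were called in WD against chow in WT, beside 1620 of all 14685 genes.

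**Figure D4:**
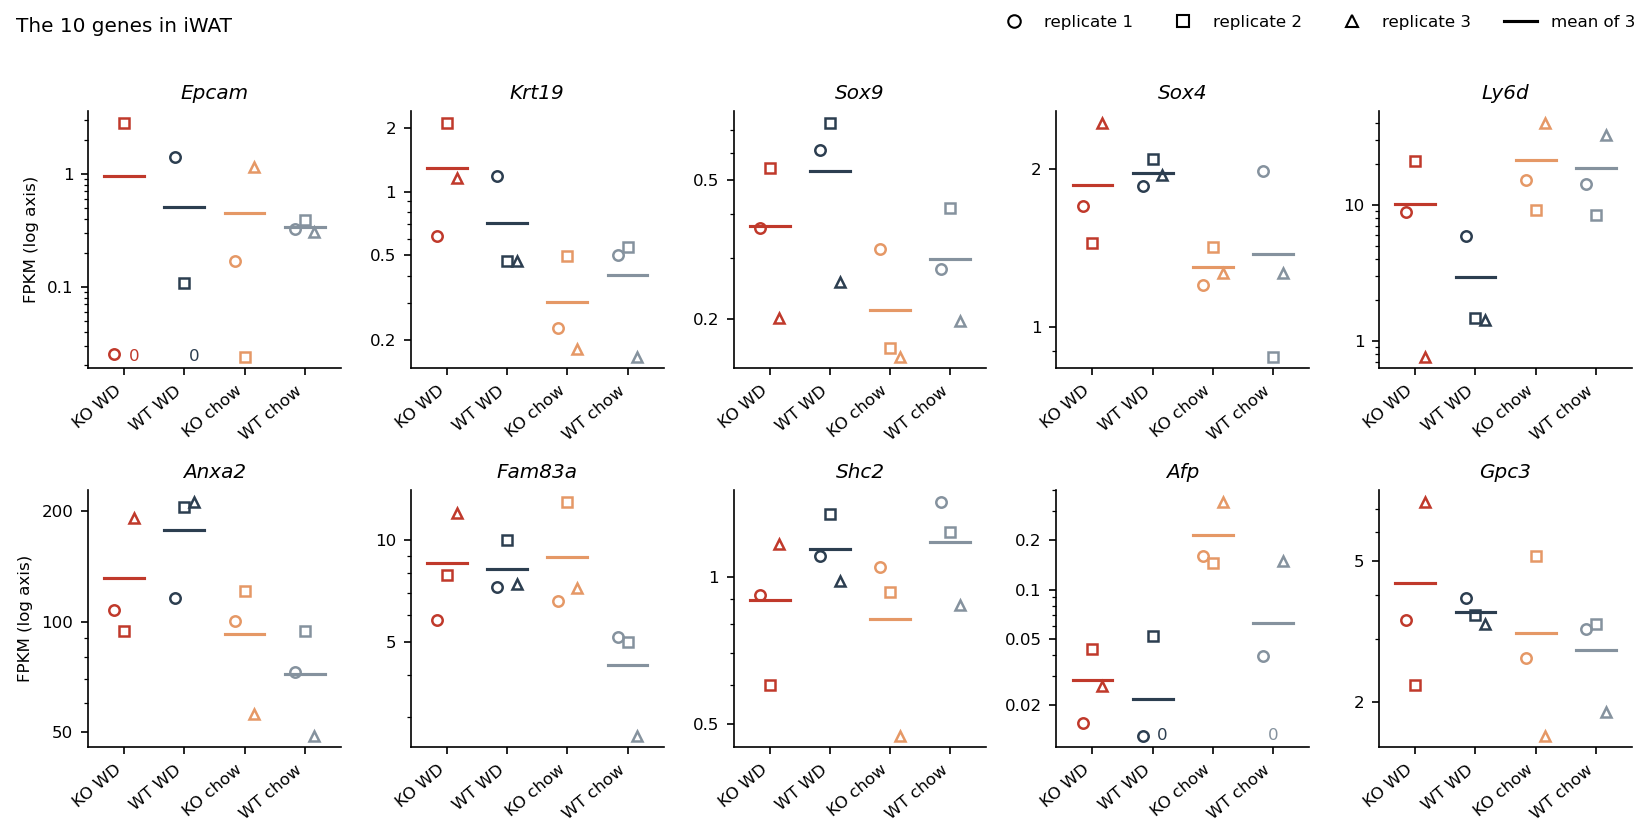
FPKM of each gene (log axis, a scale of its own per panel) in the 12 iWAT libraries, by group from KO WD to WT chow. Each symbol is 1 library, its shape the replicate number, the line is the mean of 3, and 0 marks a library with no read. No gene repeats the liver pattern of a WT WD group far above the other 3.

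Anxa2 was the most abundant of the set in iWAT, at 108, 94.0 and 192 FPKM in KO WD, 116, 205 and 212 FPKM in WT WD, 100, 121 and 56.2 FPKM in KO chow and 73.1, 94.5 and 48.9 FPKM in WT chow. In WT the diet groups did not overlap (1.28 ± 0.39 for WD against chow, limma adjusted p = 0.107, DESeq2 adjusted p = 0.00803). Fam83a stood at 5.81, 7.89 and 12.1 FPKM in KO WD, 7.28, 9.995 and 7.43 FPKM in WT WD, 6.61, 13.0 and 7.22 FPKM in KO chow and 5.20, 5.01 and 2.65 FPKM in WT chow. WT chow was its low group, below KO chow without overlap (0.90 ± 0.31 for KO against WT on chow, limma adjusted p = 0.802) and below WT WD without overlap (0.83 ± 0.31 for WD against chow in WT, limma adjusted p = 0.168). The authors' deposited table holds 1.08 for Fam83a in KO against WT on chow, with an adjusted p of 0.223. With the replicate number as a block this comparison gave Fam83a a limma adjusted p of 0.533, and 1 gene in all was called.

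Ly6d in iWAT stood at 8.78, 20.8 and 0.764 FPKM in KO WD, 5.88, 1.48 and 1.42 FPKM in WT WD, 15.3, 9.16 and 39.9 FPKM in KO chow and 14.3, 8.44 and 32.8 FPKM in WT chow. WT WD lay below WT chow without overlap (-2.29 ± 0.90, limma adjusted p = 0.190, DESeq2 -2.71 with an adjusted p of 0.0379), whereas the KO groups overlapped (-1.39 ± 0.90, limma adjusted p = 0.649). The 12 lymphocyte genes summed to 60.9, 184 and 15.0 FPKM in KO WD, 52.6, 15.9 and 16.7 FPKM in WT WD, 109, 94.8 and 305 FPKM in KO chow and 84.0, 51.2 and 366 FPKM in WT chow. In each of the 4 groups the library with the most lymphocyte RNA had the most Ly6d, and the order of the 3 libraries was equal in every group but WT WD. The part of lymphocytes in the diet difference was not tested.

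**Figure D5:**
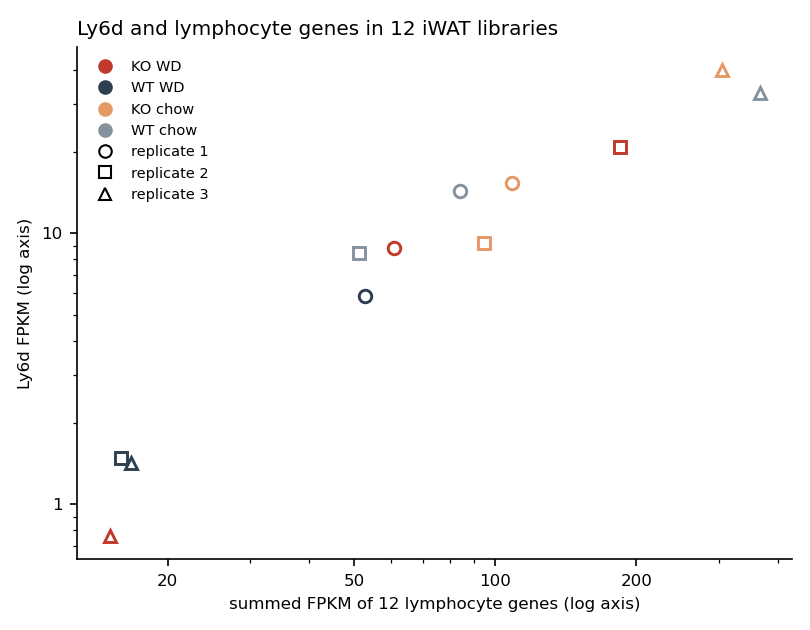
Ly6d FPKM against the summed FPKM of 12 lymphocyte genes in the 12 iWAT libraries (both axes log), coloured by group and shaped by replicate number. Ly6d runs from 0.764 FPKM in KO WD replicate 3, where the sum is lowest at 15.0 FPKM, to 39.9 FPKM in KO chow replicate 3 at a sum of 305 FPKM.

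Epcam and Krt19 were scarce and uneven in iWAT. Epcam stood at 0.0254, 2.84 and 0 FPKM in KO WD, 1.42, 0.108 and 0 FPKM in WT WD, 0.170, 0.0239 and 1.16 FPKM in KO chow and 0.325, 0.390 and 0.304 FPKM in WT chow. Krt19 stood at 0.615, 2.10 and 1.16 FPKM in KO WD, 1.18, 0.473 and 0.469 FPKM in WT WD, 0.228, 0.499 and 0.182 FPKM in KO chow and 0.5003, 0.548 and 0.167 FPKM in WT chow. KO WD replicate 2 and WT WD replicate 1, the highest of their groups for both genes, also had the highest sums of 9 mammary epithelial genes, 10.4 and 6.68 FPKM, against at most 1.74 FPKM in the other 10 libraries. Other libraries differed. Epcam stood at 1.16 FPKM in KO chow replicate 3 at a sum of 0.685 FPKM, and Krt19 at 1.16 FPKM in KO WD replicate 3 at 0.585 FPKM. In KO chow, Krt19 was highest in replicate 2, where the sum was lowest (0.184 FPKM). Krt19 was higher in KO WD than in KO chow without overlap (0.77 ± 0.25, limma adjusted p = 0.395), and the part of mammary epithelium was not tested.

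Of the other genes in iWAT, Sox4 averaged 1.87 ± 0.525 FPKM in KO WD, 1.97 ± 0.119 in WT WD, 1.30 ± 0.112 in KO chow and 1.37 ± 0.561 FPKM in WT chow, and its KO groups did not overlap between diets (0.30 ± 0.17, limma adjusted p = 0.606). Gpc3 averaged 4.31 ± 2.66, 3.58 ± 0.305, 3.14 ± 1.81 and 2.80 ± 0.810 FPKM in the same order, with WT WD above WT chow without overlap (lowest 3.32243 against highest 3.32006 FPKM) at 0.29 ± 0.37 (limma adjusted p = 0.682). Shc2 averaged 0.896 ± 0.284, 1.14 ± 0.185, 0.819 ± 0.305 and 1.18 ± 0.279 FPKM, so that KO WD iWAT, unlike KO WD liver, held 67 to 145 reads per library. Counting groups without overlap, 4 of 8 genes stood apart in WD against chow in WT (Anxa2, Fam83a, Gpc3 and Ly6d; 27.3% of all tested genes did), 2 in WD against chow in KO (Krt19 and Sox4; 15.1%), 1 in KO against WT on chow (Fam83a; 10.8%) and 0 in KO against WT on WD (25%).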

How the data were processed

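RNA-seq of liver and iWAT gave 24 libraries in 8 groups of 3, by the sample labels. These do not say whether a liver and an iWAT sample came from the same mouse. The deposited gene table holds FPKM per library made by the authors, with gene length and annotation, and the authors' comparison tables hold read counts, their log2 fold changes and their p-values, per the file headers. HISAT2 2.0.5, DESeq2 1.20.0 and mm10 are named in the submitters' processing notes; strandedness is not given in the sources used here. In the tables used, 56 other columns of per-library values were not used. The members and lists were chosen with earlier results of these data known; a list and a motif among them are not reported here.

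Replicate numbers are not said to pair mice; over 4 comparisons in each tissue, same-numbered samples deviated together, at over 0.1 for each number, in iWAT of the chow groups alone (r = 0.184, 0.127 and 0.407).

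FPKM times gene length gave whole reads within 0.01 for 540911 of 540911 values, and 64434 of 64434 deposited counts were equal to them. The library size behind the FPKM was 0.980 to 1.07 times the recovered reads in WT WD livers, 0.769 to 0.854 times in the other livers and 1.24 to 1.60 times in iWAT. Tests used limma 3.58.1 (R 4.3.3) on log2(FPKM + 1) with trend and robust variance, 4 groups of a tissue in 1 model, on genes with a mean of at least 0.5 FPKM over 12 libraries (14019 in liver, 14685 in iWAT). P-values were Benjamini-Hochberg adjusted over all tested genes and called under 0.05; the pseudocount understates changes of low genes. All members are named. Called list genes are the 4 or fewer with the smallest p, and others, such as Shc1, Lin28b and Igf2, are named for their level or role without a call. The code was tested on simulated data. Alternatives, 24 settings in liver and 23 in iWAT, included edgeR 4.0.16 and DESeq2 1.42.0 on recovered reads. Intervals cover counting error only. In the main limma fits, a p-value sets a difference against the spread within groups, estimated over the 4 groups of a tissue.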

Additional observations from a re-analysis of the deposited data

Results flagged for a closer look

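In liver, the difference between the KO effect on WD and on chow was called below 0 by limma for 6 of 9 tested genes. The same held for 0.421% of all tested genes, and by edgeR 2 of the 9 were called, Shc2 and Epcam. On log2(FPKM + 1) the difference was -2.40 (Anxa2), -1.57 (Epcam), -3.00 (Fam83a), -4.67 (Ly6d), -2.49 (Shc2) and -1.27 (Sox4). The genes were chosen on these livers, so these differences are a description. For WD against chow in WT, Ly6d was higher in every WD liver than in any chow liver (4.97) and lower in every WD iWAT library than in any chow library (-2.29); the difference between the tissues was not tested.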

How the results depend on the processing

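In KO against WT on WD, the 9 tested genes gave 155 values over the alternatives, of which 138 kept direction and side of the threshold, 17 lost the call and none turned. All 17 were of Krt19 and Sox9, and the cause was not tested. With a minimum mean of 5 FPKM, only Ly6d and Anxa2 of the set (means of 28.3 and 14.6 FPKM) were tested. Both kept their calls. The count of called genes of the set was thus 2, against 8, and 2, against 7, in WD against chow in WT. DESeq2 called 1 gene of the set (Anxa2) in WD against chow in KO livers, beside 632 over all genes. In iWAT it called 2 (Anxa2 and Ly6d) in WD against chow in WT, beside 1620 over all genes. Library weights called 1 there, beside 837. The difference between the diets, with 6 calls, had 2 at a pseudocount of 0.1, 2 by edgeR and 3 to 6 when 1 liver was left out. It had 0 with the 5 FPKM minimum, where only Ly6d and Anxa2 were tested. With 1 liver left out, 3 remained without KO chow replicate 1, 2 or 3, WT chow replicate 3 or KO WD replicate 1. Over all genes, calls in this difference numbered 77 and ranged from 6 to 516.

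The values whose sign turned were all uncalled, and the cause was not tested. In WD against chow in WT, Sox9 was -0.0436 by quantile normalization, -0.0188 without both livers with acinar genes and -0.22 to 0.21 with 1 liver left out, and Afp was 0.0380 when scaled to the recovered reads. In KO against WT on chow, leaving out 1 liver gave -0.302 to 0.0663 for Krt19 and -0.0307 to 0.106 for Sox4. In WD against chow in KO, Epcam was -0.000768 by median-of-ratios scaling, -0.0366 by quantile normalization, -0.00430 by DESeq2 and -0.00363 with library weights; quantile normalization also gave 0.0286 for Shc2 and -0.0162 for Afp, and library weights 0.00479 for Fam83a. Without both livers with acinar genes, Sox9 was 0.155 and Fam83a 0.0294. Leaving out 1 liver gave -0.0686 to 0.0455 for Epcam, -0.501 to 0.155 for Sox9, -0.00969 to 0.0896 for Sox4, -0.113 to 0.512 for Ly6d (lowest without KO WD replicate 3), -0.292 to 0.0708 for Fam83a and -0.129 to 0.0971 for Afp.

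Over all genes, KO against WT on WD in liver had 2943 calls, 1701 with the 5 FPKM minimum, 4462 with library weights and 1354 to 2998 with 1 liver left out. WD against chow in WT had 2693, 1606 with that minimum, 709 when fitted on its own groups and 1425 to 2791. WD against chow in KO had 59, 34 without the filter, 632 by DESeq2, 383 with library weights, 21 without both livers with acinar genes and 24 to 53. KO against WT on chow had 0, 3 without the filter, 16 by DESeq2 and up to 2. In iWAT, KO against WT on WD had 624 (16 to 1514), WD against chow in WT 312 (22 to 1620), WD against chow in KO 0 (up to 162), KO against WT on chow 0 (up to 70) and the difference 0 (up to 46).

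With the replicate number as a block, the difference between the diets had 3 calls in the set and 20 over all genes, WD against chow in KO livers 39 and WD against chow in WT iWAT 155, and Sox9 on WD lost its call. Same-numbered livers correlated at -0.163 to 0.110, so that the numbers are not shown to pair them. Depth limits Gpc3, Shc2, Fam83a, Krt19, Epcam and Sox4, which had 1 to 29 reads per liver outside WT WD.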
